A study of Schmidtea mediterranea with 2 samples.

Results

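The scarce planarian intestine genes SMED30015889, SMED30000013, SMED30020778, SMED30005571 and SMED30000258 were described on 1 Slide-seqV2 puck that held frozen sections of Schmidtea mediterranea worm fragments. In Slide-seqV2, a section is laid on a layer of barcoded beads at known positions, and each captured polyadenylated RNA molecule is counted once per bead by its unique molecular identifier (UMI). The 5 genes were chosen on their totals, as genes of the study's intestine marker list with under 1000 UMIs, and they were 5 of 14 listed intestine genes and of 21947 genes with at least 1 UMI. A sixth listed gene, SMED30003470, also lay under 1000 UMIs, with 461, but was not among the 5 and is given beside them. The totals alone therefore do not give these 5, and they were chosen with earlier results of these data known. Their levels, clumping and co-detection are a description. The gene SMED30016196, which the study listed for both intestine and stem cells, was kept apart.

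All values are from the Syrah-processed table that includes the second sequencing run, on beads with at least 50 UMIs, unless stated. There were 8789 such beads with 3166333 UMIs and a median of 196 UMIs per bead (50 to 6388). Of these, 6177 beads lay over tissue and 2612 lay where most surrounding barcodes were nearly empty, with medians of 237 and 123 UMIs. The tissue fell into 12 large pieces that held 75.4% of the UMIs. The data are 1 library without replicates, the labels give no treatment, strain or age, and no test between groups was possible. Intervals in parentheses are exact 95% Poisson intervals and cover counting error only. Pairs of beads share beads, so the intervals of pair ratios are too narrow. Co-detection sums over several pairs of genes count the same bead more than once, so their intervals are too narrow as well.

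The planarian intestine is a branched gut that reaches through most of the body, and its phagocytes take up and digest food inside the cell. Stem cells, called neoblasts, lie in the tissue around the gut branches, are the dividing cells of the adult worm, and are marked by piwi-1, which encodes a PIWI family protein. The intestine was marked in the study by mat2a, named for methionine adenosyltransferase, the enzyme that makes S-adenosylmethionine. The deposited tables give the 5 genes only as SMED30 identifiers, so no protein or role is stated for them here. A bead can cover parts of several cells, so a gene on a bead does not assign that bead to a cell type.

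SMED30015889 had the highest level of the 5, with 885 UMIs on 568 beads, or 280 CPM (261 to 299), where CPM is UMIs of a gene per 1000000 UMIs of all genes on the beads. SMED30000013 followed with 699 UMIs on 551 beads, or 221 CPM (205 to 238). These neighbors in the order differed beyond counting error. SMED30020778 had 390 UMIs on 333 beads, or 123 CPM (111 to 136), and SMED30005571 had 386 UMIs on 341 beads, or 122 CPM (110 to 135), and this pair did not differ beyond counting error. SMED30000258 was the scarcest with 154 UMIs on 136 beads, or 48.6 CPM (41.3 to 57.0). The 5 genes together held 2514 UMIs, 794 CPM (763 to 826). For scale, mat2a reached 326 CPM (306 to 346), piwi-1 570 CPM (544 to 597), and SMED30018252, an abundant gene of the same intestine list, 7771 CPM. These levels are UMIs and were not corrected for transcript length, so they order detection and not transcript abundance per length.

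Most beads that held one of the 5 genes held a single UMI of it, but repeated UMIs on a bead were more frequent than bead depth gave. For each gene, the expected number was computed from every bead's own UMI total. SMED30015889 had 2 or more UMIs on 168 beads where 44.9 were expected, a ratio of 3.74 (3.20 to 4.35), and up to 12 UMIs on a bead. SMED30000258 had them on 17 beads where 2.66 were expected, a ratio of 6.39 (3.72 to 10.2). The ratio was 2.74 for SMED30000013, 2.86 for SMED30020778 and 2.43 for SMED30005571, against 2.08 for mat2a and 2.11 for piwi-1. Other listed genes with under 1000 UMIs had similar ratios, so the excess was not particular to the 5. It was 6.24 for SMED30003470, and among stem cell genes 6.06 for SMED30033302, 4.13 for SMED30034055, 3.48 for SMED30031463 and 2.535 for SMED30001362. For all 5 genes the interval of this ratio lay above 1, and whether errors in UMI sequences added to it was not tested.

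**Figure D1:**
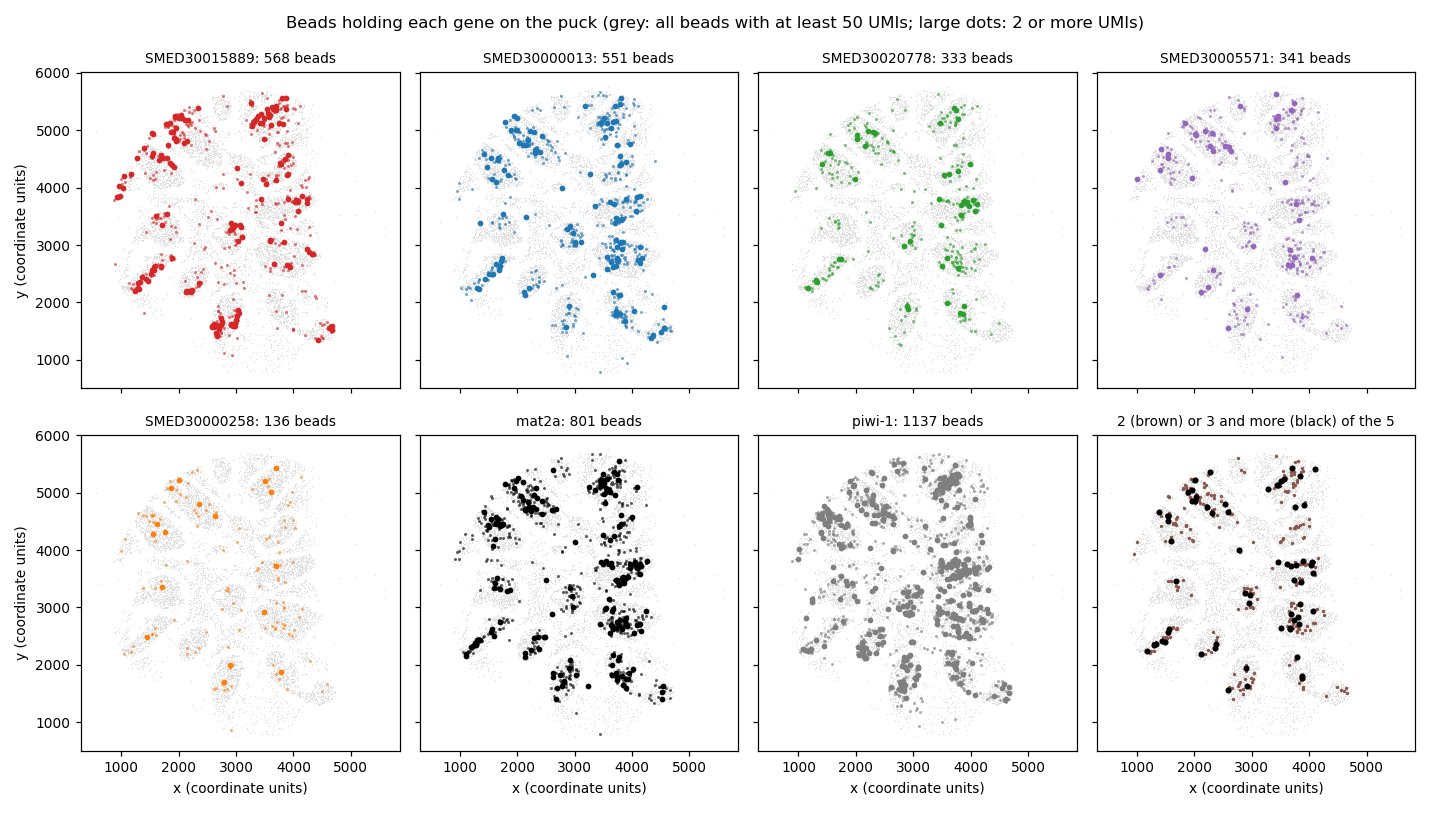
Positions of the beads that held each gene on the puck, in coordinate units whose physical size the file does not state. Grey dots are all 8789 beads with at least 50 UMIs, small colored dots are beads with 1 UMI and large dots beads with 2 or more, and the last panel shows beads with 2 or with 3 and more of the 5 genes. SMED30015889 forms patches on many pieces, while mat2a and piwi-1 are spread more widely within them.

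Beads with any of the 5 genes numbered 1527, or 17.4% of beads, and they were deeper, with a median of 557 UMIs against 158 on the other beads. The share of UMIs also depended on depth for some of the genes. From beads with 50 to 99 UMIs to beads with at least 800, SMED30020778 went from 47.2 CPM (20.4 to 92.9) to 137 (118 to 158). SMED30000013 went from 147 CPM (95.4 to 217) to 243 (217 to 271), with intervals that overlapped narrowly. SMED30015889, at 259 and 265 CPM, and SMED30005571, at 141 and 131 CPM, did not differ between those depth classes beyond counting error. SMED30000258 had only 3 UMIs in the shallowest class, 17.7 CPM (3.65 to 51.7), and 58.3 CPM (46.1 to 72.7) in the deepest. The 5 genes together went from 613 CPM (501 to 743) to 834 (786 to 884). For comparison, mat2a went from 230 CPM (164 to 314) to 326 (296 to 358), and piwi-1 stood at 613 and 622 CPM. Beads off tissue were also shallower, and depth was not separated from place here.

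Over tissue, the 5 genes together took 820 CPM, and off tissue they took 683, a ratio of 1.201 (1.08 to 1.34). SMED30000258 had the highest ratio at 2.01 (1.19 to 3.61), from 16 UMIs off tissue, followed by SMED30020778 at 1.42 (1.06 to 1.92) and SMED30000013 at 1.32 (1.07 to 1.63). SMED30015889 had the same share on both kinds of bead, 280 and 276 CPM, with a ratio of 1.02 (0.856 to 1.21), and SMED30005571 lay at 1.11 (0.849 to 1.46). The ratio was 1.25 (1.06 to 1.49) for mat2a and 0.974 (0.866 to 1.10) for piwi-1. RNA of all 5 genes was also present on beads outside the dense tissue, and how much of it had moved there from cells was not tested.

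Spatial clumping was measured as the number of pairs of beads within 50 coordinate units that both held a gene, divided by the number expected from the depths of those beads. There were 38005 pairs of beads at that distance, and a bead had a median of 9 neighbors. SMED30015889 was the most clumped of the 5, with 500 pairs where 245 were expected, a ratio of 2.04 (1.86 to 2.22). SMED30020778 had 157 pairs against 85.6 expected, a ratio of 1.83 (1.56 to 2.14), and SMED30005571 had 151 against 89.8, a ratio of 1.68 (1.42 to 1.97). Their intervals overlapped. SMED30000013, the second most abundant of the 5, was less clumped, with 319 pairs against 231 and a ratio of 1.38 (1.23 to 1.54). SMED30000258 had only 19 pairs against 14.5, and its ratio of 1.31 (0.790 to 2.05) could not be told from 1 at this depth.

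A clumping ratio of 1.5 was reached by 3 of the 5 genes, and their median was 1.68. Of all genes with at least 50 UMIs, 21.4% reached that ratio and the median was 1.10, and of genes with at least 100 and under 1000 UMIs, 17% reached it and the median was 1.11. SMED30015889 lay above 92.9% of the genes with at least 100 and under 1000 UMIs, and SMED30000258 above 72.2%. The sixth scarce gene, SMED30003470, was more clumped than any of the 5, at 2.498 (2.15 to 2.89). Summed over the 5 genes the ratio was 1.72 (1.62 to 1.82), against 1.35 (1.25 to 1.45) for mat2a, 1.26 (1.19 to 1.34) for piwi-1, 1.16 (1.15 to 1.17) for the 7 abundant intestine genes and 1.01 (1.01 to 1.02) for the 20 listed stem cell genes besides piwi-1. Among the abundant intestine genes, SMED30005670 alone reached 1.5, at 1.91 (1.78 to 2.04). Of the 20 stem cell genes 1 did, the scarce SMED30033302, at 1.89 (1.10 to 3.03) from 17 pairs. A gene found on most beads cannot exceed its expected pairs by much, so the ratios of abundant genes are bounded more tightly than those of scarce genes.

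The clumping of the 5 genes fell with distance. Summed over the genes, the ratio was 2.04 (1.82 to 2.28) for beads less than 25 units apart, 1.62 (1.52 to 1.74) at 25 to 50 units, 1.37 (1.32 to 1.43) at 50 to 100 units and 1.15 (1.12 to 1.18) at 100 to 200 units. It was 0.938 (0.928 to 0.947) at 400 to 800 units. SMED30015889 fell most steeply, from 2.67 (2.26 to 3.13) under 25 units to 1.08 (1.03 to 1.12) at 100 to 200 units. SMED30020778 kept a ratio of 1.62 (1.46 to 1.79) at 50 to 100 units and 1.28 (1.198 to 1.36) at 100 to 200 units. For mat2a the ratio was nearly level over the first 100 units, at 1.33, 1.35 and 1.33, while for piwi-1 it fell from 1.41 to 1.02.

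**Figure D2:**
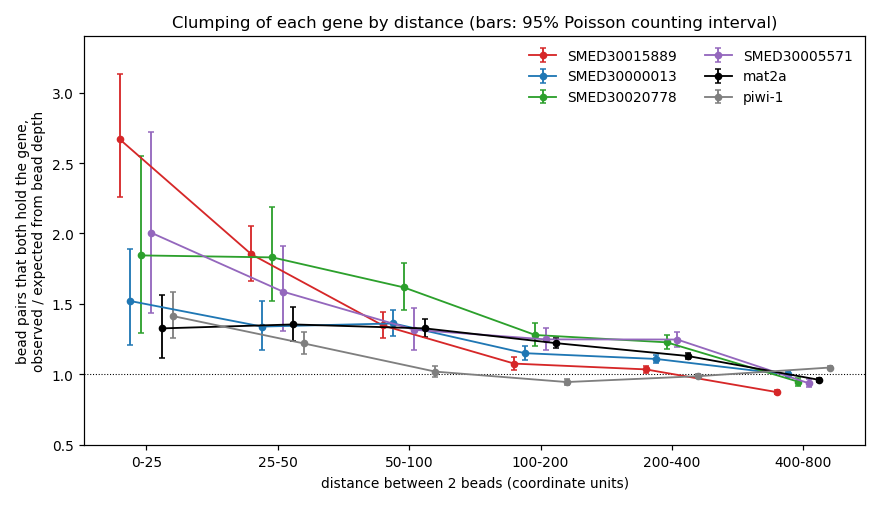
Clumping ratio (observed over expected pairs of beads that both hold the gene) against the distance between the beads in coordinate units, for 4 of the 5 genes, mat2a and piwi-1, with 95% Poisson counting intervals. SMED30015889 starts at 2.67 and reaches 1.08 at 100 to 200 units, whereas mat2a stays near 1.33 over the first 100 units. SMED30000258 is left out because it had 4 pairs under 25 units.

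Co-detection was measured as the number of beads that held both of 2 genes, divided by the number expected from bead depth. Over the 10 pairs that the 5 genes form, 493 such beads were found where 372 were expected, a ratio of 1.33 (1.21 to 1.45). SMED30020778 and SMED30000258 had the highest ratio, with 24 beads against 12.4 and a ratio of 1.93 (1.24 to 2.88). SMED30020778 with SMED30005571 had 47 beads against 30.4, a ratio of 1.55 (1.14 to 2.06), and SMED30000013 with SMED30020778 had 74 against 47.9, also 1.55 (1.21 to 1.94). SMED30015889 stood lowest, with 234 beads against 200 over its pairs with the other 4 genes and a ratio of 1.17 (1.03 to 1.33). Its pair with SMED30005571 gave 49 beads against 50.4, a ratio of 0.973 (0.720 to 1.29). The intervals of the 10 pairs overlapped widely, so their order is not settled at this depth.

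Beads with several of the genes were also more frequent than expected. At least 2 of the 5 genes were found on 325 beads against 272 expected, a ratio of 1.19 (1.07 to 1.33), and at least 3 on 66 beads against 41.9, a ratio of 1.57 (1.22 to 2.001). All 5 genes were found together on 3 beads. Different genes on different beads within 50 units gave a similar ratio, with 2840 pairs against 2185, or 1.30 (1.25 to 1.35), and SMED30020778 next to SMED30005571 gave the highest, 1.79 (1.59 to 1.99).

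At equal depth, beads were thinned to a fixed number of UMIs, as exact expected values with no random draw. At 50 UMIs per bead, co-detection of the 5 genes became too rare to read, with 4.57 beads against 3.83 expected, a ratio of 1.19. On the 4345 beads with at least 200 UMIs, thinned to 200, it was 48.9 beads against 34.3, a ratio of 1.43, and on the 2485 beads with at least 400 UMIs, thinned to 400, it was 112 against 77.01, a ratio of 1.45. At 200 UMIs SMED30015889 was present on 4.86% of beads, SMED30000013 on 4.03%, SMED30020778 on 2.40%, SMED30005571 on 2.32% and SMED30000258 on 0.871%. SMED30015889 again had the lowest ratio with the other 4 genes, at 1.32 for 200 UMIs and 1.28 for 400 UMIs, and SMED30000258 the highest, at 1.80 and 1.67.

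**Figure D3:**
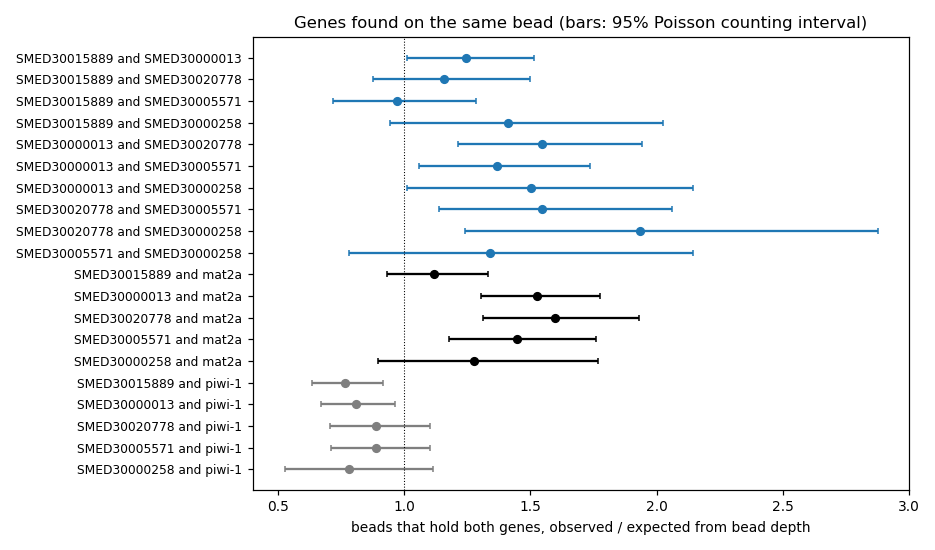
Observed over expected beads that hold both genes, for the 10 pairs of the 5 genes (blue) and for each of them with mat2a (black) and piwi-1 (grey), with 95% Poisson counting intervals and a dotted line at 1. Ratios with piwi-1 lie between 0.766 and 0.889, and those with mat2a between 1.12 and 1.60.

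The study credits its marker lists to a planarian single-cell RNA-sequencing atlas and set them against genes that differed between beads with and without mat2a. Its list marks the 5 genes as DE without saying in which data, so whether these beads entered the choice is not known, and the overlap with mat2a is given as a description. Together they shared 537 beads with mat2a where 387 were expected, a ratio of 1.39 (1.27 to 1.51). SMED30020778 had 108 beads against 67.6, a ratio of 1.60 (1.31 to 1.93), and SMED30000013 had 167 against 109, a ratio of 1.53 (1.30 to 1.78). SMED30005571 followed at 1.45 (1.18 to 1.76), and the sixth gene, SMED30003470, lay at 1.49. SMED30000258, at 1.28 (0.895 to 1.77), and SMED30015889, at 1.12 (0.933 to 1.33), could not be told from 1. The treatment of depth changed the call for SMED30015889, which had 1.28 (1.07 to 1.53) with 20 classes of depth, and 1.48 and 1.25 on beads thinned to 200 and 400 UMIs, but 1.05 (0.857 to 1.28) with a level of its own in each piece. Ratios of at least 1.5 were reached by 2 of the 5 genes, against 2.03% of genes with at least 50 UMIs and 1.34% of genes with at least 100 and under 1000 UMIs, and nothing is read from this count because the data behind that mark are not known.

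With piwi-1 the 5 genes shared fewer beads than expected, 435 against 529, a ratio of 0.822 (0.747 to 0.903). Such ratios were not particular to the 5. The sixth gene, SMED30003470, had 0.776, the abundant intestine genes a median of 0.8195 and mat2a itself 0.7945 (0.679 to 0.924). Of genes with at least 100 and under 1000 UMIs, 11.0% lay below SMED30015889, the lowest of the 5, and 31.2% below SMED30005571, the highest. SMED30015889, at 0.766 (0.634 to 0.917), and SMED30000013, at 0.808 (0.671 to 0.966), lay below 1 by more than counting error. For SMED30015889 this call was lost when depth was treated as 20 classes, at 0.882 (0.730 to 1.06), and with a level of its own in each piece, at 0.829 (0.669 to 1.01), while SMED30000013 kept an interval below 1 in both, at 0.828 (0.687 to 0.990) and 0.817 (0.667 to 0.990). SMED30000258, at 0.781 (0.527 to 1.12), SMED30020778, at 0.888 (0.706 to 1.10), and SMED30005571, at 0.889 (0.709 to 1.10), did not. None of the 5 (0 of 5) reached 1.5, against 2.17% of genes with at least 50 UMIs and 0.92% of genes with at least 100 and under 1000 UMIs. Thinned to 50 UMIs per bead, the ratio was 1.01 from 7.82 beads against 7.72, while at 200 and 400 UMIs it was 0.802 and 0.722. Neighboring beads gave 0.873 (0.841 to 0.905), and only SMED30015889 and SMED30000013 had neighbor ratios whose intervals stayed below 1, at 0.737 (0.684 to 0.793) and 0.840 (0.783 to 0.901).

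The ratios with the wider lists lay nearer 1. The 5 genes shared beads with the 7 abundant intestine genes at a ratio of 1.16 (1.13 to 1.18) and with the 20 stem cell genes besides piwi-1 at 0.999 (0.985 to 1.01). Some listed genes were on most beads, such as SMED30018252 on 60.4% and SMED30013735 on 78.4%, against 9.11% for mat2a and 12.9% for piwi-1. Ratios with such frequent genes are bounded near 1, so the list ratios are not set against those of mat2a and piwi-1. With the stem cell genes, SMED30015889 stood lowest of the 5, at 0.926 (0.901 to 0.951), and SMED30020778 highest, at 1.07 (1.03 to 1.10). A bead can enter these sums up to 20 times, so the intervals understate counting error and no difference between the genes is read from them. Among single genes, SMED30015889 shared 155 beads with SMED30005670 where 107 were expected, a ratio of 1.45 (1.23 to 1.70), with an interval that overlapped that of its ratio with mat2a. With the gene on both lists, SMED30016196, the 5 genes gave 1.003 (0.958 to 1.05). That gene was on 89.7% of beads, which holds its ratio near 1, so nothing is read from this value. With the sixth gene, SMED30003470, the 5 genes gave 1.209 (1.043 to 1.395).

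Outside the lists, 307 genes with at least 1000 UMIs were ranked by how often they lay on a bead with any of the 5 genes. The expected number treated the 5 genes as independent, which gave 7179 beads with none of them where 7262 were found. These ratios therefore run low, and they are read against their median of 0.935 and not against 1. SMED30027223, with 464 beads against 343 and a ratio of 1.35 (1.23 to 1.48), and SMED30032290, at 1.29 (1.19 to 1.40), stood highest. SMED30034819, at 0.478 (0.404 to 0.561), and SMED30014876, at 0.579 (0.490 to 0.680), stood lowest. SMED30034819 was itself strongly clumped, at 3.24.

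Levels varied among the 12 large pieces of tissue, which are not replicates of a condition. Of the 5 genes, SMED30015889 varied most among pieces beyond counting error, from 120 CPM (69.9 to 192) to 620 (505 to 753). Its median was 257, and 9 of the 12 pieces had intervals that left out its pooled level. SMED30000013 ranged from 91.7 to 411 CPM with 5 such pieces, SMED30020778 from 50.6 to 280 with 3, and SMED30005571 from 49.4 to 172 with 2. SMED30000258 ranged from 28.1 to 79.8 CPM with 0 such pieces, each resting on 5 to 22 UMIs. The sixth gene, SMED30003470, ranged from 41.9 to 351 CPM, a wider ratio than for any of the 5, with 4 such pieces. Across the 12 pieces the summed level of the 5 genes had a Pearson correlation of 0.853 with that of mat2a and of 0.408 with that of piwi-1, as a description, since the pieces share the library and the denominator. For SMED30015889 alone the correlation with mat2a was 0.528, and for SMED30000013 it was 0.807.

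**Figure D4:**
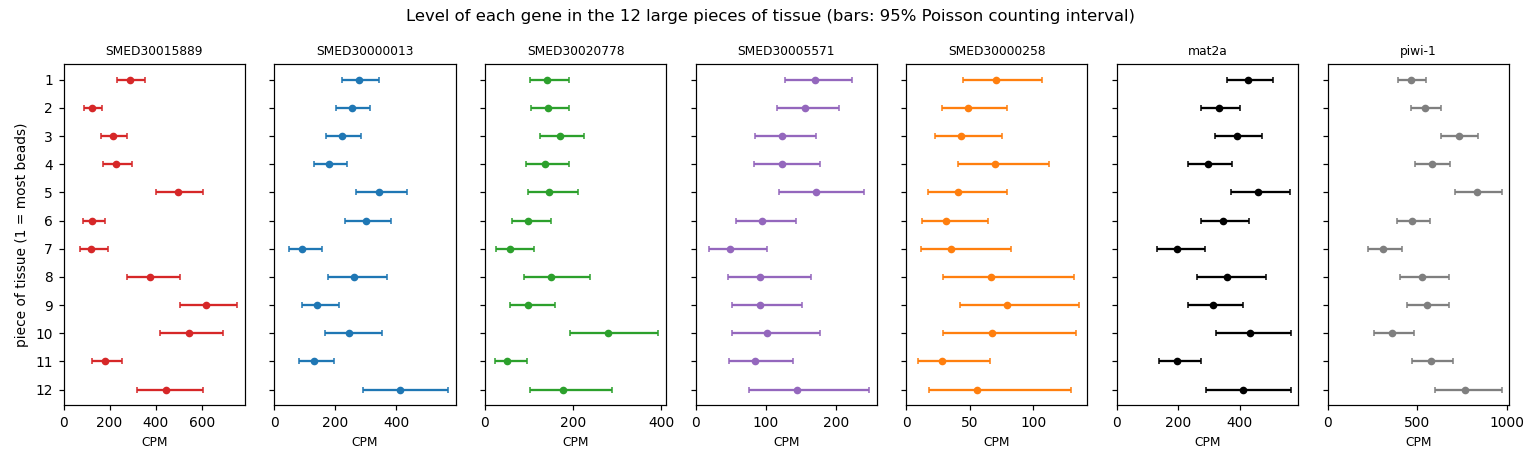
Level of each of the 5 genes, mat2a and piwi-1 in the 12 large pieces of tissue, in CPM with 95% Poisson counting intervals and pieces numbered by their number of beads. SMED30015889 ranges from 120 to 620 CPM, while the intervals of SMED30000258 overlap in all pieces.

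Within the pieces the summed clumping ratio was lower and still above 1. With a level of its own for each piece and pairs within pieces only, the summed ratio was 1.54 (1.45 to 1.64), and it was 1.94 (1.76 to 2.13) for SMED30015889, 1.22 (1.08 to 1.37) for SMED30000013, 1.504 (1.26 to 1.78) for SMED30020778 and 1.52 (1.27 to 1.80) for SMED30005571. SMED30000258, at 1.30 (0.782 to 2.03), could not be told from 1. It was above 1 in 6 of 12 pieces, with a median of 0.532, but a piece had only 0.218 to 2.61 expected pairs, so nothing is read from this. The summed ratio was above 1 in 12 of 12 pieces, from 1.22 to 2.01, with intervals above 1 in 11 of them. For SMED30000013 the clumping ratio was above 1 in 12 of 12 pieces, but with intervals above 1 in 0 of them. Co-detection of the 5 genes with one another was above 1 in 10 of 12 pieces, from 0.941 to 2.46, with intervals above 1 in 4 of them. Co-detection with mat2a was above 1 in 12 of 12 pieces, from 1.08 to 2.003, with intervals above 1 in 2 of them. Co-detection with piwi-1 ranged from 0.543 to 1.98 and was above 1 in 3 of 12 pieces, with an interval above 1 in 1 piece and below 1 in 2.

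Over the pooled beads of the 12 pieces, the level of SMED30015889 was lower far from the margin. It was 299 CPM (248 to 357) on beads less than 25 units from the nearest barcode not over tissue and 121 (85.0 to 166) on beads at least 100 units inside. Beads at least 50 units inside had 0.749 times (0.642 to 0.875) the level of beads nearer the margin. SMED30000013 had a ratio of 1.15 (0.968 to 1.36), SMED30005571 of 1.26 (0.988 to 1.60), SMED30020778 of 1.07 (0.850 to 1.34) and SMED30000258 of 0.931 (0.646 to 1.34), and none of these 4 could be told from 1. The ratio was 1.14 (0.988 to 1.31) for mat2a and 0.807 (0.654 to 0.995) for the sixth gene, SMED30003470. When each piece's own level was used, SMED30015889 had 319 UMIs inside against 350 expected, a ratio of 0.911 without an interval. That ratio sets the inside against the whole pieces, so it is not comparable with 0.749, which sets it against beads nearer the margin. SMED30015889 was lower inside than nearer the margin in 6 of 12 pieces, against 7 for SMED30020778 and 8 for piwi-1. A position within the pieces that sets SMED30015889 apart was therefore not shown.

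**Figure D5:**
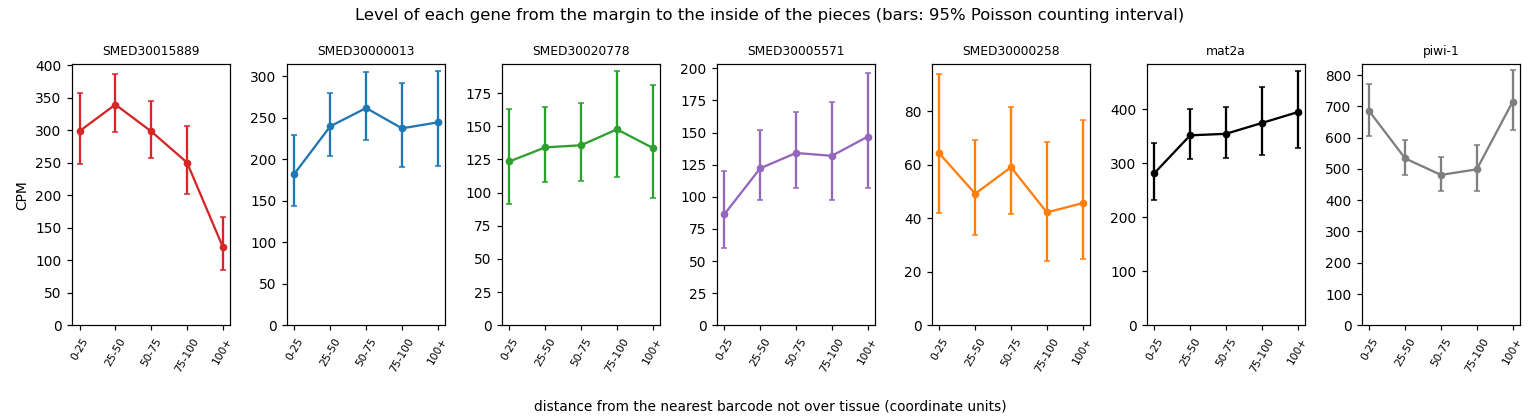
Level in CPM of each of the 5 genes, mat2a and piwi-1 in 5 classes of distance from the nearest barcode not over tissue, in coordinate units, on beads of the 12 large pieces, with 95% Poisson counting intervals. Over the pooled beads SMED30015889 goes from 299 CPM at the margin to 121 at 100 units and more.

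Syrah changes how bead barcodes are read, so the 5 genes were also compared between versions of the data. They held 1994 UMIs in the original table with the second run and 2514 in the Syrah-processed one, 1.26 times as many, while all UMIs rose 1.28 times. SMED30000258 rose least, from 129 to 154 UMIs or 1.19 times, and SMED30015889 most, from 690 to 885 or 1.28 times. The share of the 5 genes was 807 CPM (772 to 843) in the original table, so it did not differ from the 794 of the Syrah-processed one beyond counting error. Both versions count the same library, and with the second run the Syrah-processed version held 1.07 times the UMIs of the 5 genes that it held with the first run alone.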

How the data were processed

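The authors sequenced 1 library from 1 puck in 2 runs and deposited raw UMI counts of each gene on each barcode, made with the Broad WARP Slide-seqV2 pipeline from original reads and from reads whose barcodes Syrah had corrected. The tables named for the second run include the first. The methods name the schMedS3 genome, while rows carry SMED30 identifiers. A further deposited file gives other values, the x and y positions, in an unstated unit.

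The tools were scipy 1.17.1, numpy 2.4.6 and matplotlib 3.10.9 under Python 3.11.15. A bead's expected chance of holding a gene was 1 - exp(-rate x UMIs of the bead), with the rate set to give the observed number of beads. The chance of holding any of the 5 genes combined their single chances as if they were independent. A bead was over tissue where 25% or more of the 50 barcodes closest to it had 10 or more UMIs in the original table with the second run. Large pieces were beads over tissue linked within 30 units, with at least 200 beads. The ratio of 1.5 was used for counts of genes. Computations were tested on simulated data. Genes named are the 5 genes, mat2a, piwi-1, examples of the study's lists, and the 2 highest and 2 lowest genes in sharing beads with the 5 among those with at least 1000 UMIs. Other bead minimums, table versions, regions, radii and depth treatments were tried. The members and lists were chosen with earlier results of these data known.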

Additional observations from a re-analysis of the deposited data

Results flagged for a closer look

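Barcodes with under 50 UMIs were left out of every comparison, and they also held the 5 genes. There were 24729 such barcodes with 198495 UMIs, and 149 of these UMIs belonged to the 5 genes, or 751 CPM (635 to 881), which overlaps the share on deeper beads. SMED30015889 had 67 of them, 338 CPM (262 to 429), SMED30000013 43, SMED30005571 17, SMED30020778 15 and SMED30000258 7.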

How the results depend on the processing

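Of 86 alternative values of the share, clumping and 3 co-detection results, 70 stayed inside the counting interval of the reported value. A further 15 lay outside it without crossing a ratio of 1, and 1 crossed it. The share had 1 of these 15 values, and as a level in CPM it has no side of 1. In the largest piece of tissue alone, the share of the 5 genes was 945.8 CPM, their clumping ratio 1.86, their co-detection with one another 1.47 and that with mat2a 1.22 (0.958 to 1.52), which could not be told from 1. Clumping was 2.04 within 25 units, 1.47 within 100 units and 2.22 for pairs of UMIs. Thinned to 50 UMIs, co-detection of the genes with one another was 1.19 and that with piwi-1 was 1.01, the only change of side, from under 8 expected beads. The following alternatives were chosen after seeing the data. With a level of its own in each piece, clumping was 1.54. Leaving out SMED30015889 gave a clumping ratio of 1.53 and a co-detection ratio of 1.504, and leaving out SMED30000013 gave a clumping ratio of 1.90. Thinned to 400 UMIs, co-detection of the genes with one another was 1.45 and that with piwi-1 0.722, and thinned to 200 UMIs that with mat2a was 1.52. No paired analysis was possible because the data are 1 library, and the 2 runs are not samples of different groups. The 17 to 24 shared beads behind the scarcest pairs limit what can be said of SMED30000258.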
